A study of Mus musculus with 12 samples.

Results

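A set of 6 marker genes of the mesothelium was followed in bulk RNA-seq of Pdgfra+ cells from mouse lung, that is *Msln*, *Upk3b*, *Wt1*, *Lrrn4*, *Krt19* and *Upk1b*. They were chosen by gene name, made up 6 of the 40760 genes in the count table, and all 6 passed the filter on low counts. The 12 libraries came from the lungs of male mice, sorted by flow cytometry on CD140a, the protein encoded by *Pdgfra*. They fell into 4 groups of 3 replicates, with *WT* or *Pear1*-/- mice given vehicle or bleo, that is bleomycin delivered as an aerosol into the trachea. The mice were on a C57BL/6 background, and the *Pear1*-/- mice carried a whole-body knockout-first (tm1a) allele, in which an inserted splice-trap cassette interrupts the transcript and the exons remain in the gene. The study gives an age range for its mice in general, which is that of young adults, and none for these libraries in particular. The dose, the time after bleo and the number of mice behind each library were not given in the sources used here for these libraries. Nothing stated that replicates came from separate mice, so p-values measure only the spread between these libraries, which may be technical.

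The mesothelium is a single layer of flat epithelial-like cells of mesodermal origin that covers the lung surface as the visceral pleura. Its cells carry surface glycoproteins, uroplakins and simple keratins, secrete lubricating fluid, and keep the transcription factor WT1 from the embryonic coelomic lining. Mesothelial cells can lose these features and take on mesenchymal ones after injury. None of the 6 genes is a sort marker here.

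Each library held between 6702948 and 10447101 counted reads, and 3 counts, taken as the limit of detection, equalled between 0.287 and 0.448 CPM (a count scaled by its library total). This limit covers counting error only, and the intervals given below come from the fit over libraries. *Pear1*, the targeted gene, had 576, 545 and 519 normalized counts in the *WT* vehicle libraries and 511, 501 and 547 in the vehicle libraries labelled *Pear1*-/-, so these groups overlapped. It had 256, 239 and 266 in *WT* bleo and 355, 372 and 344 in the bleo libraries labelled *Pear1*-/-, which were the higher. Because these counts go against the label and whole-gene counts do not show where in the transcript the reads lie, *Pear1*-/- below is the deposited label. *Pdgfra* was present in all 12 libraries, between 1338 and 4802 normalized counts, as were the leukocyte gene *Ptprc* (3010 to 7727) and the epithelial gene *Epcam* (129 to 231). *WT* vehicle replicate 2 stood apart from its group. Its chi-square per degree of freedom over genes, near 1 where libraries differ by sampling only, was 21.2 and 21.8 against the other *WT* vehicle libraries but 1.73, 2.13 and 2.67 against the vehicle libraries labelled *Pear1*-/-. For 5 of the 6 mesothelial genes, *Upk3b* being the exception, its value lay closer to the mean of the vehicle libraries labelled *Pear1*-/- than to the mean of the other *WT* vehicle libraries.

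A normalized count, the deposited count divided by the authors' size factor for the library, ranged from 2.02 for *Wt1* to 412 for *Upk1b*. On a scale of CPM per kilobase of exon, *Upk1b* had the highest mean level of the 6 in each of the 4 groups, from 6.93 in *WT* bleo to 19.4 in *WT* vehicle. *Krt19* was second in each group, from 5.12 upward, and *Wt1* was the lowest in each, at 0.129 to 0.295. On the same scale *Pdgfra* had 54.1 (*WT*) and 44.4 (*Pear1*-/-) after vehicle, and 15.2 (*WT*) and 26.6 (*Pear1*-/-) after bleo. The library values of all 6 genes are plotted by group.

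**Figure D1:**
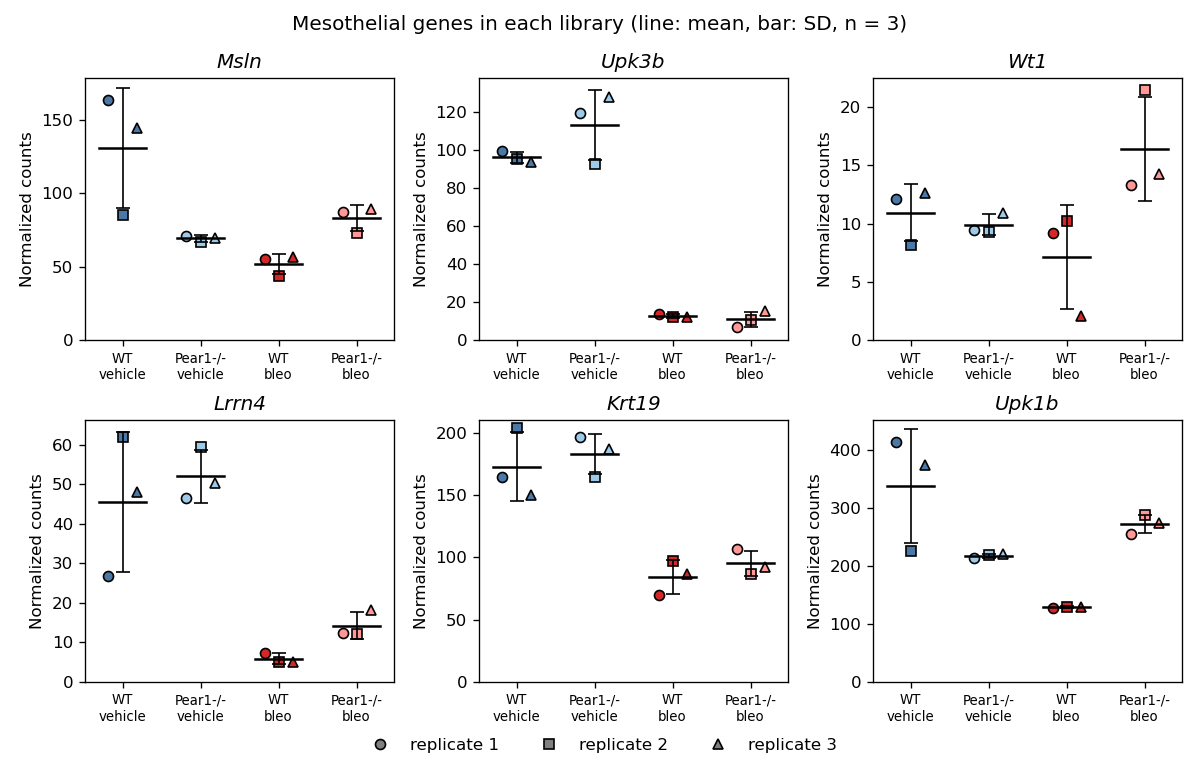
Normalized counts (vertical axis, linear, from 0) of each gene in the 12 libraries by group (horizontal axis), with each library as 1 symbol, the group mean as a line and the SD as a bar (n = 3). *Upk3b*, *Lrrn4* and *Krt19* are lower in all bleo than in all vehicle libraries, whereas *Msln* and *Upk1b* are lowest in *WT* bleo, and the square in *WT* vehicle, replicate 2, sits apart for *Msln* and *Upk1b*.

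The first comparison asked what bleo did to the mesothelial genes in *WT* mice. Of the 6 genes 5 fell, by between 2.04-fold and 7.62-fold, and *Wt1* did not pass the test. At adjusted p under 0.05 (edgeR's quasi-likelihood test with Benjamini-Hochberg adjustment over 17418 genes), 5 of 6 were lower and 0 higher, against 36.6% of all tested genes called lower. All 5 also exceeded 2-fold, as did 23.5% of all tested genes in the lower direction. Without *WT* vehicle replicate 2 it was 4 of 6, *Krt19* then having a log2 fold change of -0.82, against 33.7% of all tested genes in that fit. The median log2 fold change was -1.34 over the 6 genes and -0.07 over all tested genes. In bulk RNA, fewer mesothelial cells in the sort and less RNA of these genes per cell cannot be told apart.

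*Upk3b* (ENSMUSG00000042985, GRCm38 chr5:136038496-136046487, plus strand) encodes a uroplakin, a membrane protein first known from the bladder lining. It had 99.4, 95.4 and 93.9 normalized counts in *WT* vehicle and 13.8, 12.2 and 12.1 in *WT* bleo. The 3 vehicle values were close to each other and far above all 3 bleo values. Its log2 fold change was -2.89 ± 0.224 (SE, adjusted p = 2.38e-08 with edgeR's quasi-likelihood test). *Lrrn4* (ENSMUSG00000043110, chr2:132868305-132880891, minus strand), a transmembrane protein with leucine-rich repeats that is used as a mesothelial marker, had 26.7, 61.9 and 48.1 in *WT* vehicle and 7.35, 5.10 and 5.06 in *WT* bleo. The vehicle values spread widely, with the lowest in replicate 1, but none came near the bleo values. The log2 fold change was -2.93 ± 0.363 (SE, adjusted p = 4.36e-06 with edgeR).

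The promoters of *Upk3b* and *Lrrn4* are printed because these were the 2 of the 6 genes held by the RefSeq promoter table used (GRCm38.p6). They were also the genes with the largest drops of the 6 in both genotypes as labelled. Each sequence is the 250 bases before the start annotated by RefSeq, in the gene's own direction. That start equals the GENCODE gene start given above for *Upk3b* and lies 29 bases inside the gene for *Lrrn4*. Capitals mark GGAATG or its reverse complement, the motif of TEAD factors, which act with the co-activator YAP. The windows lie at chr5:136038246-136038495 (plus strand, 60.8% GC) for *Upk3b* and chr2:132880863-132881112 (minus strand, 59.2% GC) for *Lrrn4*.
Upk3b: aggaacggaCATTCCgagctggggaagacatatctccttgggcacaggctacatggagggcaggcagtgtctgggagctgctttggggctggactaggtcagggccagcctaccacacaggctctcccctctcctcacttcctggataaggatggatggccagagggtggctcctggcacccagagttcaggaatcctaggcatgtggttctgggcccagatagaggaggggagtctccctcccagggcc
Lrrn4: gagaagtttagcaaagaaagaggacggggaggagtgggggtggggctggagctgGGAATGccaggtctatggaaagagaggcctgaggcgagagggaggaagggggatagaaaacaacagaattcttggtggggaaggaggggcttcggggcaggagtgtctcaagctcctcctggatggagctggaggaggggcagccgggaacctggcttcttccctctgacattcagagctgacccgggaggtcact
The motif began 196 bases before the RefSeq start of *Lrrn4* on the gene's strand and 241 bases before that of *Upk3b* on the opposite strand. Of 32851 mouse promoter windows of this length, 12.6% held it on either strand. The letters GCGTGGG, the core bound by WT1 and related zinc finger factors, were in 4.3% of windows, and the E-box CAGGTG of Snail and Zeb factors was in 17.2%. Neither of these was found in the windows of *Upk3b* and *Lrrn4*. No motif contains another, each was searched on both strands, and a match is a description of letters, not of binding.

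*Krt19* (ENSMUSG00000020911, chr11:100140810-100148665, minus strand), a keratin of simple epithelia and mesothelium, had 165, 204 and 150 normalized counts in *WT* vehicle and 69.8, 96.9 and 87.1 in *WT* bleo. The groups did not overlap, and the log2 fold change was -1.03 ± 0.149 (SE, adjusted p = 2.23e-05 with edgeR). *Krt19* is also expressed by lung epithelium. Of 15 epithelial genes, 14 could be tested, with 11 lower and 2 higher, where 36.6% of all tested genes were called lower and 31.4% higher. The higher were the general epithelial genes *Epcam* (1.28-fold) and *Cdh1* (1.87-fold). The summed level ranged from 43421 to 61673 normalized counts in *WT* vehicle and from 16646 to 16884 in *WT* bleo, but the club cell gene *Scgb1a1* and the surfactant gene *Sftpc* held 78.7 to 83.0% of it in *WT* vehicle. The other 13 genes summed to 9252 to 10468 in *WT* vehicle and 4955 to 5110 in *WT* bleo. The basal cell keratin *Krt5*, the gene not tested, had at most 4 counts in any of the 12 libraries. The part of epithelial RNA in the *Krt19* result was not tested.

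*Upk1b* (ENSMUSG00000049436, chr16:38773184-38800328, minus strand) encodes a tetraspanin that pairs with type 3 uroplakins. It had 412, 225 and 373 normalized counts in *WT* vehicle and 128, 130 and 130 in *WT* bleo. Replicate 2 was the low vehicle library, yet it lay above every bleo library. The log2 fold change was -1.37 ± 0.168 (SE, adjusted p = 3.94e-06 with edgeR), and -1.53 without *WT* vehicle replicate 2. *Msln* (ENSMUSG00000063011, chr17:25748613-25754378, minus strand), which encodes mesothelin, a surface glycoprotein anchored in the membrane by a lipid, followed the same layout, at 164, 85.2 and 144 in *WT* vehicle and 55.1, 43.9 and 56.7 in *WT* bleo. Replicate 2 was again the low vehicle library, and the groups did not overlap. Its log2 fold change was -1.31 ± 0.210 (SE, adjusted p = 5.58e-05 with edgeR), and -1.49 without *WT* vehicle replicate 2.

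*Wt1* (ENSMUSG00000016458, chr2:105126529-105173616, plus strand), the zinc finger transcription factor of the mesothelial lineage, had 12.1, 8.12 and 12.6 normalized counts in *WT* vehicle and 9.18, 10.2 and 2.02 in *WT* bleo. The groups overlapped, and the lowest value rested on 2 reads. The log2 fold change was -0.58 (95% interval -1.60 to 0.44, adjusted p = 0.297 with edgeR), on 2 to 11 reads per library. Of 12 leukocyte markers, 9 were higher and 2 lower in this comparison, against 31.4% and 36.6% of all tested genes. Their summed level ranged from 19766 to 26078 normalized counts in *WT* vehicle and from 109449 to 111358 in *WT* bleo, none of them at or under 3 counts in every library of a group. Of 11 fibroblast genes, 9 were lower and 2 higher, 8 of the 9 over 2-fold, against 23.5% of all tested genes. These 11 genes had a median log2 fold change of -1.55. Their summed level ranged from 124629 to 140580 in *WT* vehicle and from 82674 to 83238 in *WT* bleo. Of 8 endothelial genes, 6 were lower and 0 higher, against the same 36.6% and 31.4% of all tested genes. The endothelial sum ranged from 3818 to 4416 in *WT* vehicle and from 2392 to 2542 in *WT* bleo. The part of these lists in the lower mesothelial values was not tested.

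The second comparison asked the same of mice labelled *Pear1*-/-. Of the 6 genes 3 fell with bleo, *Upk3b* by 10.3-fold, *Lrrn4* by 3.65-fold and *Krt19* by 1.92-fold, while *Msln*, *Wt1* and *Upk1b* did not pass the test. The share of all tested genes called lower was 33.4% at adjusted p under 0.05 with edgeR, against 3 of 6 here, and 2 of the 3 exceeded 2-fold, a bar passed downward by 19.4% of all tested genes. Over the 6 genes the median log2 fold change was -0.33, against -0.05 over all tested genes.

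*Upk3b* had 119, 92.8 and 128 normalized counts in *Pear1*-/- vehicle and 7.10, 10.3 and 15.3 in *Pear1*-/- bleo. No library of either group came near the other group, and the log2 fold change was -3.37 ± 0.221 (SE, adjusted p = 5.28e-09 with edgeR). For *Lrrn4* the vehicle libraries held 46.4, 59.4 and 50.2 and the bleo libraries 12.4, 12 and 18.1. These groups were again apart, with a log2 fold change of -1.87 ± 0.301 (SE, adjusted p = 7.53e-05 with edgeR). *Krt19* had 197, 165 and 188 in vehicle and 107, 86.8 and 92.5 in bleo. Its log2 fold change was -0.94 ± 0.143 (SE, adjusted p = 4.5e-05 with edgeR). Of the 14 epithelial genes tested, 11 were lower in this comparison and 1, *Cdh1*, was higher (2.39-fold). Of all tested genes 33.4% were called lower and 28.9% higher. The epithelial list without *Scgb1a1* and *Sftpc* summed to 10260 to 11388 in *Pear1*-/- vehicle and 2130 to 2293 in *Pear1*-/- bleo. Between the bleo groups the *Krt19* values overlapped, while 10 of the 14 epithelial genes were lower under the *Pear1*-/- label and 2 were higher, *Cdh1* (1.32-fold) and *Hopx* (from 2.51 ± 2.59 to 18.8 ± 8.50 normalized counts). Of all tested genes 23.9% were called lower and 22.1% higher between the bleo groups. The part of epithelial RNA was not tested here either.

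*Msln* had 71.0, 66.8 and 69.8 normalized counts in *Pear1*-/- vehicle and 87.0, 73.1 and 89.6 in *Pear1*-/- bleo. All bleo values lay just above all vehicle values, with a log2 difference of 0.27 (95% interval -0.17 to 0.71, adjusted p = 0.272 with edgeR). *Upk1b* had 213, 218 and 219 in vehicle and 255, 287 and 274 in bleo. Here too the bleo values were the higher without overlap, at a log2 difference of 0.33 (95% interval -0.01 to 0.67, adjusted p = 0.0807 with edgeR). This passed the threshold under 4 of 19 alternative settings, among them an edgeR fit of only the libraries of the comparison. Another was the fit without *WT* vehicle replicate 2 (log2 difference 0.31, adjusted p = 0.00149 with edgeR). That library is in neither group compared and enters only through the fit shared by all libraries. Without it 68% of all tested genes were called in this comparison. *Wt1* had 9.47, 9.28 and 10.9 in vehicle and 13.3, 21.5 and 14.3 in bleo, a log2 difference of 0.73 (95% interval -0.17 to 1.64, adjusted p = 0.145 with edgeR). With 3 libraries against 3, an exact two-sided permutation test cannot go below p = 0.1. All 6 genes reached that minimum in this comparison. The share of all tested genes reaching it was not counted, so it sets none of the 6 apart. The other cell markers moved here as well. Of the 11 fibroblast genes 8 were lower and 2 higher (median log2 fold change -1.33). The fibroblast sum ranged from 139374 to 145433 normalized counts in *Pear1*-/- vehicle and from 220516 to 228645 in *Pear1*-/- bleo. The 2 higher genes were *Col1a1* (4.52-fold) and *Col1a2* (2.88-fold). The other 9 genes summed to 87757 to 88907 in *Pear1*-/- vehicle and 19528 to 19782 in *Pear1*-/- bleo. Of the 8 endothelial genes 6 were lower and 1 higher. The endothelial sum ranged from 4233 to 4619 normalized counts in *Pear1*-/- vehicle and from 2365 to 2572 in *Pear1*-/- bleo. The leukocyte sum ranged from 25798 to 27000 and from 49559 to 50821, with 6 of 12 genes higher and 4 lower, against 28.9% and 33.4% of all tested genes. Their part in the mesothelial values was not tested.

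**Figure D2:**
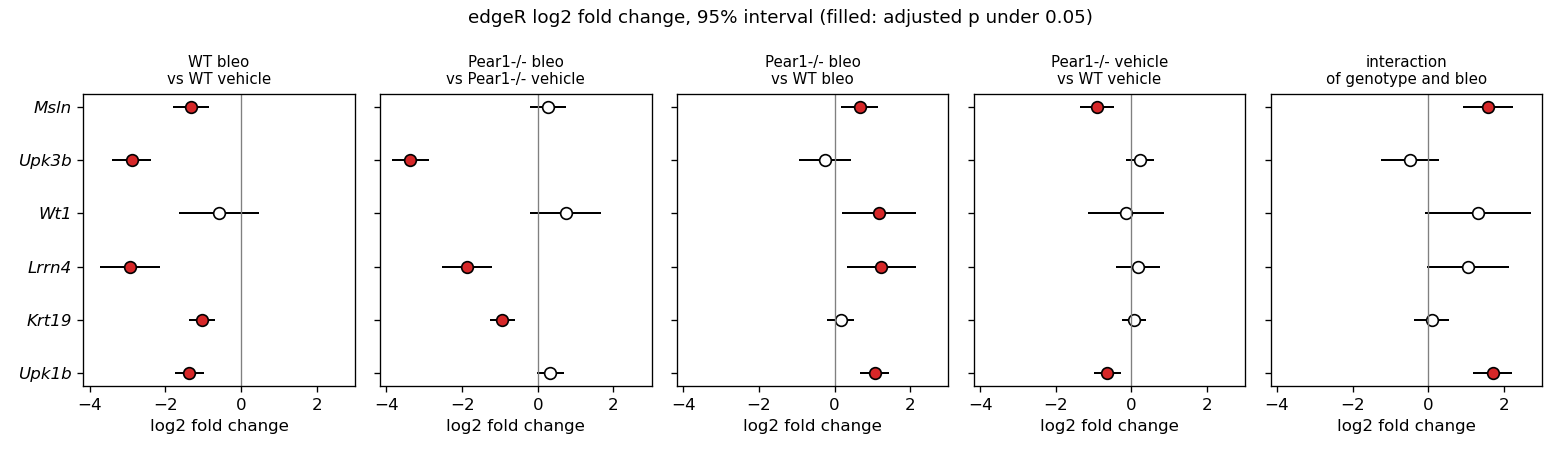
Log2 fold change (horizontal axis) of each gene (vertical axis) in the 5 comparisons, as a point with its 95% interval from edgeR's quasi-likelihood fit, filled where adjusted p is under 0.05. *Upk3b* sits at -2.89 and -3.37 in the first 2 panels, while *Msln* and *Upk1b* sit at -1.31 and -1.37 in the first panel but at 0.27 and 0.33 in the second.

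Between the bleo groups, 4 of the 6 genes had higher counts under the *Pear1*-/- label than in *WT* and 2 did not pass the test. *Upk1b* was 2.09-fold, *Lrrn4* 2.35-fold, *Wt1* 2.25-fold and *Msln* 1.58-fold higher, whereas *Upk3b* and *Krt19* had log2 differences of -0.25 (95% interval -0.90 to 0.40) and 0.16 (95% interval -0.17 to 0.50). Of all tested genes, 22.1% were called higher at adjusted p under 0.05 with edgeR, and 6.26% were also over 2-fold, as were 3 of the 6. The median log2 difference was 0.86 over the 6 genes and -0.01 over all tested genes.

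The evidence differed among these 4. *Upk1b*, at 128 to 130 normalized counts in *WT* bleo and 255 to 287 in *Pear1*-/- bleo, had a log2 difference of 1.06 ± 0.167 (SE, adjusted p = 9.62e-05 with edgeR), and it passed under all 19 alternative settings. *Msln*, at 43.9 to 56.7 against 73.1 to 89.6, had 0.66 ± 0.215 (SE, adjusted p = 0.0195 with edgeR), but without *WT* bleo replicate 2 it had 0.54 (adjusted p = 0.0775). It also missed the threshold without *Pear1*-/- bleo replicate 1 (adjusted p = 0.0527) or 3 (adjusted p = 0.056). *Lrrn4*, at 5.06 to 7.35 against 12 to 18.1, had 1.23 ± 0.418 (SE, adjusted p = 0.0247 with edgeR), but without *Pear1*-/- bleo replicate 3 it had 1.02 (adjusted p = 0.11). Without *WT* bleo replicate 2 or 3 it had 1.13 (adjusted p = 0.0892 and 0.0891). *Wt1*, at 2.02 to 10.2 against 13.3 to 21.5, had 1.17 ± 0.444 (SE, adjusted p = 0.0426 with edgeR). Its call was lost under 14 of 19 alternatives, and without *WT* bleo replicate 3, the library with 2 reads, its log2 difference was 0.73 (adjusted p = 0.215). Without 1 bleo library, the number of the 6 genes passing was 1 without *WT* bleo replicate 2 or *Pear1*-/- bleo replicate 3, and 2 without *WT* bleo replicate 3 or *Pear1*-/- bleo replicate 1.

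Other cell markers also differed between the bleo groups. The summed leukocyte list ranged from 109449 to 111358 normalized counts in *WT* bleo and from 49559 to 50821 in *Pear1*-/- bleo, with 11 of its 12 genes lower and 0 higher, against 23.9% and 22.1% of all tested genes. The 11 fibroblast genes, *Pdgfra* among them, summed to 82674 to 83238 in *WT* bleo and 220516 to 228645 in *Pear1*-/- bleo, with 5 higher and 2 lower, the latter near the share over all tested genes. The higher sum rested on the collagen I genes *Col1a1*, at 42471 and 142173 as group means, and *Col1a2*, at 23269 and 63672. The other 9 genes summed to 17075 to 17168 in *WT* bleo and 19528 to 19782 in *Pear1*-/- bleo. Endothelial markers overlapped in their summed level, at 2392 to 2542 and 2365 to 2572. *Pdgfra* itself had a log2 difference of 0.80 ± 0.067 (SE, adjusted p = 1.47e-07 with edgeR). The part of these differences in the mesothelial values was not tested.

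Between the vehicle groups, *Msln* and *Upk1b* were lower in the libraries labelled *Pear1*-/- and the other 4 genes did not pass the test. The log2 difference was -0.92 ± 0.202 (SE, adjusted p = 0.0388 with edgeR) for *Msln* and -0.63 ± 0.158 (SE, adjusted p = 0.0426 with edgeR) for *Upk1b*, beside 3.65% of all tested genes called lower. *Msln* ranged from 85.2 to 164 in *WT* vehicle and from 66.8 to 71.0 in *Pear1*-/- vehicle, and *Upk1b* from 225 to 412 and from 213 to 219. Each *WT* range ended, at its low end, in replicate 2, which lay just above the other group. Both calls were lost under 13 of 19 alternatives, including the removal of any library other than *WT* vehicle replicate 2, with adjusted p up to 0.189 for *Msln* and 0.214 for *Upk1b*. Without *WT* vehicle replicate 2 the log2 differences were -1.08 (adjusted p = 1.08e-07) and -0.79 (adjusted p = 3.44e-09), in a fit in which 55.2% of all tested genes were called in this comparison, against 4.5% with that library. *Upk3b* had a log2 difference of 0.23 (95% interval -0.13 to 0.58), *Lrrn4* 0.17 (-0.39 to 0.74), *Krt19* 0.07 (-0.22 to 0.37) and *Wt1* -0.14 (-1.12 to 0.83). With all 12 libraries, 2 of 11 fibroblast, 1 of 14 epithelial and 1 of 8 endothelial genes were also called lower. Called higher were 1 of the 14 epithelial and 1 of 12 leukocyte genes. Their part in the mesothelial values was not tested.

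Whether bleo acted differently in the genotypes as labelled was asked with the interaction term of the same fit. The term was called for *Msln*, at 1.58 ± 0.295 (SE, adjusted p = 0.000721 with edgeR), and for *Upk1b*, at 1.70 ± 0.230 (SE, adjusted p = 4.72e-05 with edgeR), both toward higher values after bleo, relative to vehicle, under the *Pear1*-/- label than in *WT*. Of all tested genes, 17.9% were called in this direction. The term was 1.31 (95% interval -0.05 to 2.68) for *Wt1*, 1.06 (0.002 to 2.12) for *Lrrn4*, 0.09 (-0.35 to 0.53) for *Krt19* and -0.48 (-1.22 to 0.27) for *Upk3b*, and none of these 4 passed adjustment. For *Lrrn4* it passed without *WT* vehicle replicate 1, the library with the lowest vehicle value (1.32, adjusted p = 0.0264 with edgeR). The median term was 1.19 over the 6 genes and -0.001 over all tested genes. Over the other marker lists it was -1.24 for leukocyte, -0.83 for epithelial, -0.11 for endothelial and 0.35 for fibroblast genes. The part of these lists in the terms of the 6 genes was not tested.

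The 6 genes thus followed more than 1 layout over the 4 groups. By group mean, *Msln* and *Upk1b* had the order *WT* vehicle, *Pear1*-/- bleo, *Pear1*-/- vehicle, *WT* bleo, and in both the first and second overlapped through *WT* vehicle replicate 2 while the later neighbours did not overlap. *Upk3b*, *Lrrn4* and *Krt19* had both vehicle groups on top, overlapping each other, and the bleo groups below without overlap. Within the bleo pair, *Lrrn4* was higher in *Pear1*-/- without overlap, whereas *Upk3b* and *Krt19* overlapped. *Wt1* was highest in *Pear1*-/- bleo, above all *WT* vehicle values, and its other 3 groups each overlapped their neighbour. Pearson's correlation of log2 CPM over the 12 libraries was 0.918 for *Msln* with *Upk1b*, 0.920 for *Upk3b* with *Krt19*, 0.894 for *Upk3b* with *Lrrn4* and 0.897 for *Lrrn4* with *Krt19*. Between these sets it ranged from 0.405 to 0.553. *Wt1* gave -0.02 with *Upk3b* and 0.606 with *Upk1b*. These are descriptions, since the 12 points share group, depth and library preparation.

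The ratio of 2 genes' counts within a library does not depend on the scaling between libraries. After vehicle, *Upk1b* to *Upk3b* was 3.49 ± 0.985 for *WT* and 1.95 ± 0.347 for *Pear1*-/- (SD, n = 3). After bleo it was 10.2 ± 0.785 for *WT* and 27.2 ± 8.98 for *Pear1*-/-. The bleo libraries were all above the vehicle libraries, and within bleo those labelled *Pear1*-/- were above *WT*, without overlap (two-sided exact permutation p = 0.1, the minimum for 3 against 3 libraries). *Msln* to *Upk3b* did likewise, at 1.36 ± 0.407 and 0.621 ± 0.0893 after vehicle and 4.08 ± 0.546 and 8.40 ± 3.39 after bleo, *WT* first. *Upk1b* to *Msln* lay between 2.29 and 3.93 in all 12 libraries, with bleo and vehicle overlapping in each genotype as labelled. Between the vehicle groups it did not overlap, at 2.52 to 2.64 in *WT* and 3 to 3.26 under the *Pear1*-/- label (two-sided exact permutation p = 0.1, the minimum). *Upk3b* to *Lrrn4* was 2.41 ± 1.16 (*WT*) and 2.23 ± 0.575 (*Pear1*-/-) after vehicle and 2.23 ± 0.303 in *WT* bleo, against 0.757 ± 0.161 in *Pear1*-/- bleo, where each library was below every library of the other groups.

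**Figure D3:**
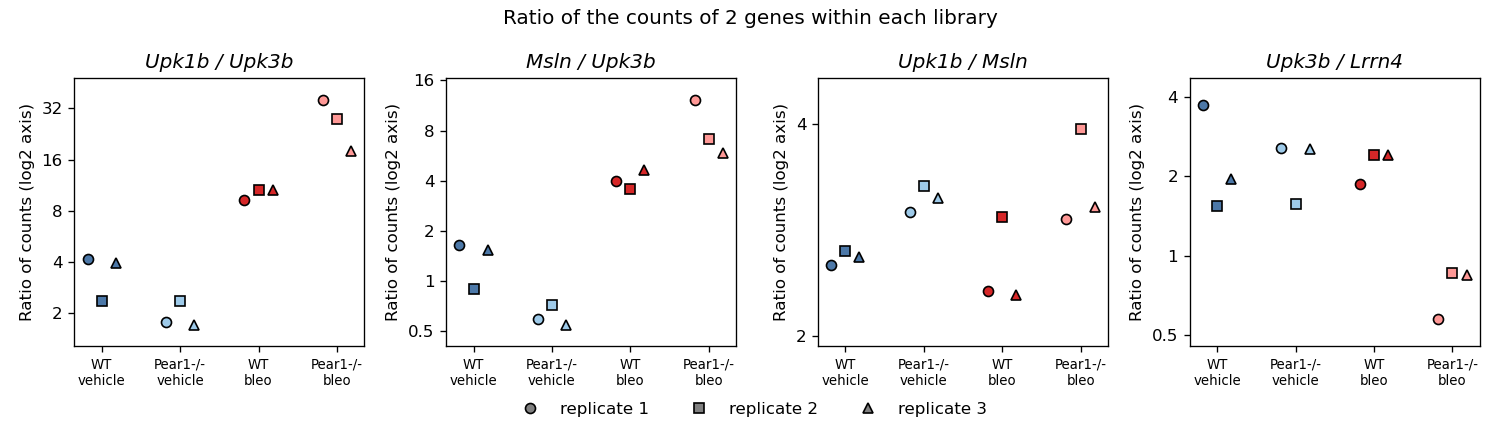
Ratio of the counts of 2 mesothelial genes within each of the 12 libraries (vertical axis, log2 scale, 1 symbol per library) by group (horizontal axis). *Upk1b* to *Upk3b* and *Msln* to *Upk3b* are higher in *WT* bleo than in vehicle and highest in *Pear1*-/- bleo, *Upk1b* to *Msln* lies between 2.29 and 3.93, and *Upk3b* to *Lrrn4* is lowest in *Pear1*-/- bleo.

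A wider list of 16 mesothelial genes was counted beside the 6. In *WT*, bleo lowered 12 of the 15 that could be tested and raised 1, and 10 of the 12 fell over 2-fold. The median log2 fold change was -1.73. Of all tested genes 36.6% were called lower, 23.5% lower by over 2-fold and 31.4% higher, and the median was -0.07. In mice labelled *Pear1*-/-, 12 fell, 10 of them over 2-fold, and 2 rose, with a median of -1.17. There the shares of all tested genes were 33.4% lower, 19.4% lower by over 2-fold and 28.9% higher, with a median of -0.05. *Muc16*, the mucin that binds mesothelin, fell from 154 ± 61.9 to 10.5 ± 2.30 normalized counts in *WT* (log2 fold change -3.84, standard error 0.339, adjusted p = 1.05e-07 with edgeR) and from 76.7 ± 8.84 to 3.05 ± 1.56 in mice labelled *Pear1*-/-. *Pkhd1l1*, a large receptor-like membrane protein, had 62 to 90 counts in *WT* vehicle and 1 to 5 in *WT* bleo, near the limit of detection. Its log2 fold change of -4.82 in *WT* rested on these few reads. Under the *Pear1*-/- label it had 67, 61 and 54 counts after vehicle and 3, 3 and 0 after bleo, at least 22.1-fold lower against 3 counts per library. The log2 fold changes of *Gpm6a*, a membrane glycoprotein, were -2.04 in *WT* and -1.17 under the *Pear1*-/- label. In the same order *Nkain4*, a protein that interacts with the sodium pump, had -2.67 and -1.69. *Slpi*, a secreted protease inhibitor also made by airway epithelium, had -2.51 and -1.31, and *Rspo1*, a secreted activator of Wnt signalling, had -1.50 and -2.15. Both *WT* values rested in part on *WT* vehicle replicate 2, which at 3120 normalized counts of *Slpi* and 68.0 of *Rspo1* lay above the other *WT* vehicle libraries (917 and 890, 27.9 and 17.2). Without it the *WT* log2 fold change of *Slpi* was -1.58 (adjusted p = 4e-21 with edgeR) and that of *Rspo1* was -0.66 (adjusted p = 0.0744), so the *Rspo1* call was lost.

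The basonuclin gene *Bnc1*, a transcription factor of mesothelium and squamous epithelium, had 9, 9 and 6 counts in *WT* vehicle and 0 in each *WT* bleo library, at least 3.04-fold lower against 3 counts per library. Under the *Pear1*-/- label it had 11, 17 and 9 counts after vehicle and 3, 0 and 0 after bleo, at least 4.44-fold lower. With genes at this limit set to their bounds, the median of the wider list was -1.60 in *WT* and -1.17 in mice labelled *Pear1*-/-. *Calb2*, the mesothelial calcium-binding protein calretinin, had 5, 7 and 5 counts in *WT* vehicle and at most 2 in any other library, and could not be tested. Among the exceptions, the immunoglobulin-domain gene *Ildr2* rose with bleo, by 0.80 and 1.01 on the log2 scale, and *Krt7*, a simple keratin, had 0.12 (adjusted p = 0.38) and -0.03 (adjusted p = 0.839, both with edgeR). *Tbx18*, a T-box factor of mesothelial and mural lineages, had 14, 1 and 17 counts in *WT* vehicle and 1, 0 and 4 after bleo. Under the *Pear1*-/- label it had 4, 3 and 1 after vehicle and 17, 10 and 13 after bleo. Its low value in *WT* vehicle was replicate 2. Its log2 fold change with bleo was -2.80 ± 0.906 (SE, adjusted p = 0.0128) in *WT* and 2.15 ± 0.816 (SE, adjusted p = 0.0315, both with edgeR) in mice labelled *Pear1*-/-.

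**Figure D4:**
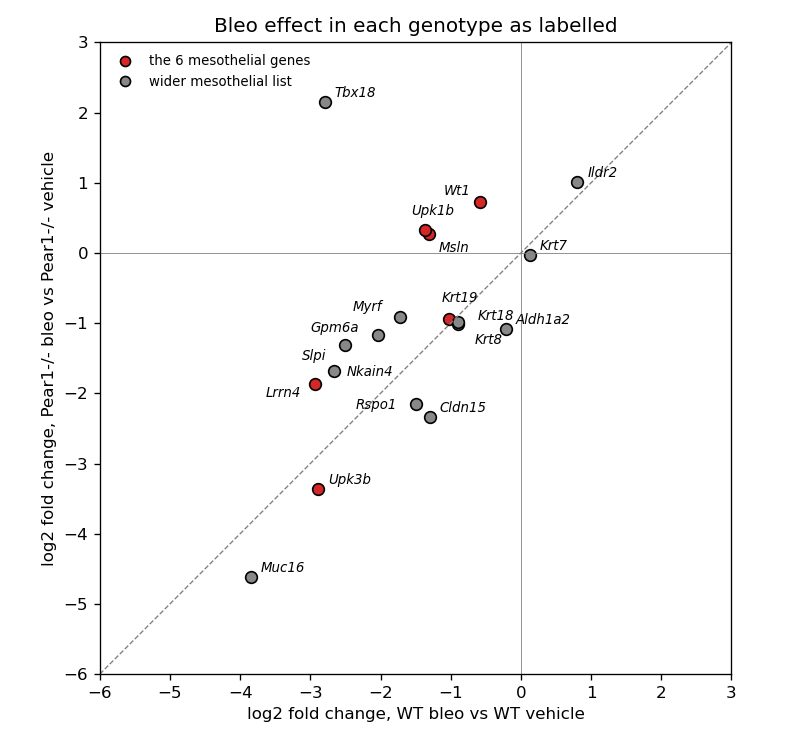
Log2 fold change with bleo in *WT* (horizontal axis) and in mice labelled *Pear1*-/- (vertical axis) for the 6 mesothelial genes (red) and 13 genes of the wider list (grey), with the line of equal change dashed and *Bnc1* and *Pkhd1l1*, at or under 3 counts in every library of a bleo group, left out. *Upk3b* and *Krt19* lie near the line, and *Msln*, *Upk1b*, *Wt1* and *Tbx18* lie left of 0 in *WT* and above 0 in those labelled *Pear1*-/-.

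Between the bleo groups 4 of the 15 genes of the wider list were higher and 2 lower in the libraries labelled *Pear1*-/- (median log2 difference 0.06). This was near or below the shares over all tested genes, 22.1% higher and 23.9% lower. Those higher were *Slpi* (2.20), *Tbx18* (2.77), *Gpm6a* (0.69) and *Ildr2* (0.43), and those lower were *Muc16* (-1.78) and *Aldh1a2* (-0.60), the retinoic acid synthesis enzyme. Between the vehicle groups 1 gene of the 15, *Muc16*, was called lower, beside 3.65% of all tested genes. Its groups overlapped, as *WT* vehicle replicate 2, at 84.2 normalized counts, lay within the range under the *Pear1*-/- label (68.6 to 86.2). Without *WT* vehicle replicate 2 the list had 11 lower and 1 higher for bleo in *WT*, where 76.4% of all tested genes were called in either direction. It then had 12 lower and 2 higher for bleo in those labelled *Pear1*-/- (68% of all tested genes called), 2 lower and 4 higher between the bleo groups (49.2%), and 4 lower and 5 higher between the vehicle groups (55.2%). The partners with which *Upk1b* and *Upk3b* build plaques in the bladder were low. *Upk1a* had 6 to 7 counts in *WT* vehicle, 9 to 13 in *Pear1*-/- vehicle, 1 to 4 in *WT* bleo and 4 to 6 in *Pear1*-/- bleo. *Upk3a* was at or under 3 counts in all 12 libraries, *Upk2* in all 6 bleo libraries, and none of *Upk1a*, *Upk2* and *Upk3a* passed the filter on low counts.

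Over the 12 libraries the wider list tracked *Upk3b* more closely than *Msln* or *Upk1b*, as a description. The median Pearson's correlation of its 15 tested genes was 0.870 with *Upk3b*, 0.830 with *Lrrn4* and 0.838 with *Krt19*, but 0.467 with *Msln*, 0.448 with *Upk1b* and 0.05 with *Wt1*. For both *Msln* and *Upk1b* the closest gene of the list was *Tbx18*, at 0.799 and 0.796. For *Upk3b* it was *Krt8* (0.977), the keratin partner of KRT18 and KRT19. Among the 13809 non-member genes whose mean log2 CPM was 1 or more, the closest to *Upk1b* was *Mylk* (0.991), which encodes myosin light chain kinase, followed by the immunoglobulin light chain segments *Igkv4-90* and *Igkv16-104*. *Mylk* stood at 4198 ± 881 (*WT*) and 3090 ± 131 (*Pear1*-/-) normalized counts after vehicle, and at 1827 ± 51.4 (*WT*) and 3564 ± 137 (*Pear1*-/-) after bleo. The closest to *Msln* was *Tenm4* (0.975), with the non-muscle myosin gene *Myh10* (0.951) among the next. *Upk3b* was closest to the matrix gene *Hmcn2* (0.995), *Krt19* to *Arhgef18* (0.977) and *Wt1* to *Ankrd39* (0.902).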

How the data were processed

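Pdgfra+ lung cells were profiled with the SMART-Seq v4 kit, which does not keep strand, and per the paper's methods the reads were aligned with HISAT2 to GRCm38 (mm10). The counting program is not given in the sources used here. The authors deposited raw counts per gene and a normalized table (linear signal), which equals the counts divided by 1 DESeq2 size factor per library (0.825 to 1.16). All of its values gave whole reads back (100% within 0.001), equal to the deposited counts, so a count test on them calls the genes of the main test.

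Counts were tested in edgeR 4.0.16 (R 4.3.3) with TMM, filterByExpr, all 12 libraries, 1 mean per group and glmQLFTest, two-sided, with Benjamini-Hochberg adjustment over 17418 genes and a threshold of 0.05. The study used limma with a 2-fold bar, so limma 3.58.1 on variance-stabilized values and DESeq2 1.42.0 were alternatives, with other scalings, no filter, fewer libraries and a replicate block. The scripts were tested on simulated counts. Coordinates and exon lengths came from GENCODE M21 (GRCm38), promoters from RefSeq. No annotated gene overlapped the 6. The 6 genes, the wider lists and the rule for similar genes (Pearson, log2 CPM with a prior count of 2) were chosen with earlier results of these data known. The values of the marker lists without *WT* vehicle replicate 2 were added after seeing the data. Groups are GEO's labels.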

Additional observations from a re-analysis of the deposited data

Results flagged for a closer look

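*Msln* and *Upk1b* had a bleo effect that differed between the genotypes as labelled, by the interaction term of edgeR's quasi-likelihood fit. For *Msln* the term was 1.58 ± 0.295 in log2 units (SE, adjusted p = 0.000721), and it lay between 1.04 and 1.75 over 18 alternatives, with adjusted p up to 0.00258. For *Upk1b* it was 1.70 ± 0.230 (SE, adjusted p = 4.72e-05), between 1.37 and 1.87 over 18 alternatives, with adjusted p up to 0.000371. In all 3 libraries of *WT* bleo both genes were below all vehicle libraries of *WT*, and in all 3 of *Pear1*-/- bleo both were above all vehicle libraries labelled *Pear1*-/-. Without *WT* vehicle replicate 2, the library that resembled the other vehicle group, both terms passed the threshold.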

How the results depend on the processing

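The number of the 6 genes at adjusted p under 0.05 was 5 for bleo in *WT* without any 1 library, 3 to 4 for bleo in those labelled *Pear1*-/-, 1 to 4 between the bleo groups, 0 to 2 between the vehicle groups and 2 to 3 for the interaction. Between the vehicle groups it was 0 with limma on variance-stabilized values and 0 in an edgeR fit of those 6 libraries alone; in both, 2 of the 6 had an unadjusted p under 0.05. The *Krt19* vehicle difference turned to -0.066 with library totals alone, a scaling that moved the median of all genes by -0.15 in that comparison, and ranged from -0.018 to 0.286 without 1 library. *Lrrn4* there ranged from -0.088 to 0.535, and the *Krt19* interaction from -0.13 to 0.18. The cause of these shifts was not tested, and none of these values passed the threshold. Values from limma on variance-stabilized counts were smaller for low genes (*Upk3b* in *WT* -1.48, *Lrrn4* -1.10), by the construction of that scale.

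Samples of different groups shared only a replicate number. Correlations of the deviations of 18 same-numbered pairs ranged from -0.16 to 0.10 and none was over 0.1. With the replicate block, 5, 3, 3, 2 and 2 of the 6 genes passed in the order above, *Wt1* being the call lost between the bleo groups. Of the alternative values of all results, 506 kept direction and side of the threshold, 46 lost the call, 5 gained one and 7 turned direction. Depth limits *Wt1* (2 to 25 reads per library), *Lrrn4* in bleo and *Upk3b* in bleo (from 5 and 8 reads).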

Other observations

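The 10 genes closest to the mean of the 6 mesothelial genes, each standardized over the 12 libraries, were *Pcdhb9*, *F2r*, *Ighv1-15*, *Zfp185*, *Scn2a1*, *Glp1r*, *Urgcp*, *Snap47*, *Serpina3c* and *Stbd1*. Their Pearson's correlations lay between 0.986 and 0.994. None was on the wider mesothelial list, which has at most 15 genes among the 13809 compared, so this count carries little information. *F2r*, which encodes the thrombin receptor PAR-1, stood at 3679 ± 456 (*WT*) and 3166 ± 106 (*Pear1*-/-) normalized counts after vehicle, and at 1417 ± 88.6 (*WT*) and 2404 ± 2.92 (*Pear1*-/-) after bleo (SD, n = 3). *Stbd1*, a glycogen-binding protein, had 745 ± 128, 633 ± 14.8, 162 ± 16.2 and 365 ± 14.8 in the same order. *Elf3*, an epithelial transcription factor, was among the 5 genes closest to *Lrrn4*, at 45.6 ± 9.29, 55.1 ± 11.3, 8.14 ± 1.05 and 17.1 ± 2.52.

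The makeup of the mesothelial signal differed between groups. *Upk1b* held 41.8 ± 7.55% of the counts of the 6 genes in *WT* vehicle and 44.3 ± 0.818% in *WT* bleo, and 33.7 ± 1.72% and 55.3 ± 2.88% in the libraries labelled *Pear1*-/-. In the same order *Upk3b* held 12.3 ± 1.54%, 4.38 ± 0.427%, 17.5 ± 2.09% and 2.20 ± 0.782%. *Krt19* to *Krt8*, a ratio of keratins, was between 0.521 and 0.559 as a mean in all 4 groups, with single libraries between 0.382 and 0.663.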
